A study of Mus musculus with 6 samples.

Results

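The genes described here are 10 transcription factors that build or maintain the epidermal lineage: Trp63, Ehf, Elf3, Grhl1, Grhl2, Grhl3, Klf4, Klf5, Ovol1 and Gata3. They were taken by name from the 49671 genes of a bulk RNA-seq table, and all 10 were found and passed the filter on low values. In basal keratinocytes of mouse ear skin, 4 of the 10 were called between females and males, against 6.1% of all tested genes. Ehf, Elf3 and Ovol1 were higher in females and Klf4 was lower. Between castrated males and females the same 4 were called, against 1.73% of all tested genes. Ehf, Elf3 and Ovol1 were lower and Klf4 higher in castrated males. Only the call of Ehf between females and males held whichever single library was left out. None was called between castrated males and males, where only 0.0389% of all tested genes were called. Trp63 and Gata3, the most abundant of the set, Klf5 and the 3 Grainyhead-like genes were not called in any comparison.

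The epidermis renews from a basal layer attached to the basement membrane, whose cells stop dividing, move up through the spinous and granular layers and end as cornified cells. p63, encoded by Trp63, is the master regulator of the stratified epithelial lineage and activates the keratin, integrin and adhesion genes of basal cells. The other factors act with it or after it: Klf5, Gata3 and the Grainyhead-like factors keep epithelial identity and junctions, while Klf4, Ovol1, Ehf, Elf3 and Grhl3 are known for the exit from the basal state and for building the barrier.

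The series concerns sex differences in the dynamics of epidermal stem cells of CD1 mice, an outbred stock. Its groups were castrated males, females and intact males, with 2 libraries in each of these 3 groups, and no transgene was involved. The labels give neither the ages of the mice nor the time since castration. Each library held polyA RNA of 100000 living ear keratinocytes sorted as positive for integrin alpha 6 (a basal cell surface protein) and negative for CD34 (a marker of the hair follicle bulge), pooled from 2 littermates. The replicate is therefore a pool of mice, and litter cannot be told apart from library, nor fully from group with 2 libraries in each.

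The libraries held 8412487 to 9648154 reads. Values are CPM, reads relative to the scaled size of their library, with means ± SD over n = 2 libraries, and 1 read was worth 0.102 to 0.128 CPM. The threshold for calling a gene was 0.05 on the adjusted p (limma on log2(CPM + 0.5), Benjamini-Hochberg over all 15413 genes tested, two-sided). Markers of basal keratinocytes were abundant everywhere, with a sum over 9 markers of 47120 to 47290 CPM in castrated males, 42190 to 43740 in females and 44210 to 50640 in males, and none of the 9 was called. In females against males 6 of the 9 were nevertheless lower without overlap and 1 higher (27.2% and 26.6% of all genes), with a median log2 fold change of -0.45, against -0.01 over all genes. Cd34 stood at 1.49 to 3.05 CPM. On the first principal component (56.2% of the variance) the females lay apart (28.9 for replicate 1 and 64.2 for replicate 2) from the other libraries, which lay between -32.4 and -16.6. Female replicate 2 thus lay farthest out on this component. On the second component (18% of the variance) male replicate 1 lay apart at -41.9, and the other libraries lay between -1.74 and 15.7.

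Per kilobase of exon the members spanned a wide range of levels. Gata3 averaged 204 CPM per kb over the 6 libraries and Trp63 190 CPM per kb, places 242 and 267 among the 15362 tested genes with a length. Klf4 followed at 48.8 CPM per kb, then Ehf at 29.8, Ovol1 at 19.7, Grhl2 at 14.7, Grhl3 at 11.9, Klf5 at 11.6, Grhl1 at 6.18 and Elf3 at 1.77 CPM per kb. Between neighbours in this order the libraries did not overlap for Trp63 above Klf4, for Klf5 above Grhl1 and for Grhl1 above Elf3. All other neighbours overlapped, such as Gata3 (185 to 225 CPM per kb) and Trp63 (159 to 210 CPM per kb), so their order is not resolved. The order also depended on sex for Ehf: it averaged 13.2 CPM per kb in castrated males, 67.0 in females and 9.08 in males. In females Ehf thus stood above Klf4 (32.3 CPM per kb), and in males far below it (56.8 CPM per kb for Klf4).

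**Figure D1:**
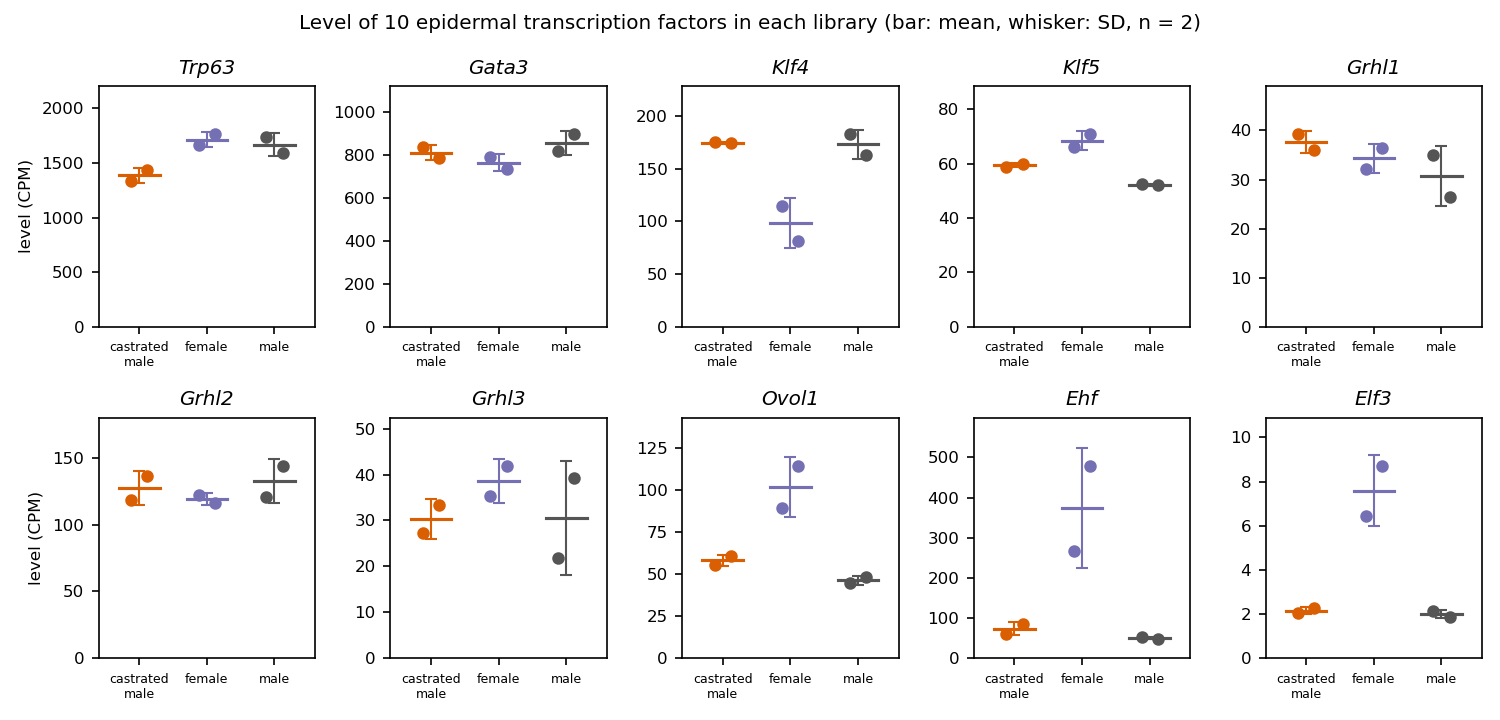
Level of each of the 10 genes in each library (CPM, linear axis from 0), by group, with points for libraries, a bar for the mean and whiskers for the SD of the 2 libraries of a group. Both female libraries lie above the other 4 for Ehf, Elf3 and Ovol1 and below them for Klf4, while the female and male points overlap for Trp63, Grhl1, Grhl2 and Grhl3.

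Females were first compared with males. Of the 10 members, 3 were called higher and 1 lower, while 6.1% of all tested genes were called in this comparison (3.7% higher and 2.39% lower). The members' median log2 fold change was 0.28, against -0.01 over all genes. In 6 of the 10 members the 2 female libraries did not overlap with the 2 male libraries, 4 of them higher and 2 lower; over all genes this held for 53.7% (26.6% higher and 27.2% lower).

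Ehf, an ETS factor restricted to epithelia that is bound near differentiation genes in human keratinocytes, changed most. It had 268 and 480 CPM in the female libraries, against 52.9 and 48.3 CPM in the male libraries. Both female libraries lay far above both males, and the females also differed between themselves by a ratio of 1.79. The group means were 374 ± 150 CPM in females and 50.6 ± 3.29 CPM in males, a ratio of 7.38. The log2 fold change was 2.81 ± 0.26 (SE), with a 95% interval of 2.23 to 3.39 and an adjusted p of 0.00147. In the order from most raised to most lowered Ehf stood at place 61 of all 15413 genes. On the GRCm38 assembly the gene lies at chr2:103263433-103303278 on the minus strand.

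Elf3, the ETS paralog of Ehf, is known in human keratinocytes as an activator of cornified envelope genes. It was the scarcest member, with 63 and 68 reads in the female libraries, against 20 and 16 reads in the male libraries. These correspond to 6.44 and 8.72 CPM in females, and 2.13 and 1.88 CPM in males, with no overlap. The log2 fold change was 1.68 ± 0.29 (adjusted p 0.0197). Elf3 lies at chr1:135253575-135258568 on the minus strand. Its exons share 162 bases with an antisense gene, Gm26642, which had 159 and 163 reads in females, against 63 and 110 reads in males. No source used here says whether the counting used strand, so reads of this pair may be mixed.

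Promoter sequences from RefSeq (GRCm38.p6, 250 bases before the start) were matched for 5 of the 10 members. Elf3 and Klf4, which moved in opposite directions, are shown to compare their starts; CpG dinucleotides are in capitals. For Elf3 only the 154 bases outside every annotated exon are printed, chr1:135258569-135258722, and for Klf4 the whole window, chr4:55532476-55532725, both on the minus strand.
Elf3: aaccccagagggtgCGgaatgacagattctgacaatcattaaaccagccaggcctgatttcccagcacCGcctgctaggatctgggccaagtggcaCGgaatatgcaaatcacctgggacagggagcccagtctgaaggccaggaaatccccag
Klf4: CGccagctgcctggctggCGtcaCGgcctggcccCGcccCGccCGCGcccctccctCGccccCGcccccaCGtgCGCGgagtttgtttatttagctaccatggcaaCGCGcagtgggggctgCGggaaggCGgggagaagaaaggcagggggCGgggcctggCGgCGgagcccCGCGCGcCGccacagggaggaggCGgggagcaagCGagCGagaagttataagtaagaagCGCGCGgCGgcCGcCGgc
The Elf3 window held 8 CpG in its 250 bases, 3 of them in the printed run, and was 57.2% G and C. The Klf4 window held 32 CpG and was 74.0% G and C. Over 32851 mouse promoters the median was 6 CpG (quartiles 2 and 16) and 52.4% G and C, so Klf4 has a CpG-rich start and Elf3 does not stand far from the median.

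The letter patterns of 7 motifs were searched on both strands of these windows. They were a Grainyhead motif (AACCGGT, in 0.831% of all promoters), a GATA motif (AGATAA, 9.99%), a Krüppel-like motif (CCACCC, 28.1%), an ETS motif (CCGGAA, 12%), an OVOL motif (CCGTTA, 2.18%), an AP-1 motif (TGANTCA, 6.75%) and the p53/p63 motif (5.84%). Elf3 held a single Krüppel-like match, 7 bases before the start and outside the printed run. Klf4 held no match to any pattern. Among the members that were not called, Gata3 held a p53/p63 match, an ETS match and 3 Krüppel-like matches, Grhl3 held 2 Krüppel-like matches and Grhl1 held 1. No promoter entry was matched for Trp63, Ehf, Grhl2, Klf5 or Ovol1.

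Ovol1, a zinc finger repressor that in mouse epidermis restrains the growth of progenitors leaving the basal layer, had 89.2 and 114 CPM in the female libraries, against 44.5 and 48.2 CPM in the male libraries. The groups did not overlap, and the lower female library was well above the higher male. The ratio of means was 2.20 and the log2 fold change 1.12 ± 0.15 (adjusted p 0.00884). Ovol1 lies at chr19:5549136-5560646 on the minus strand and shares 690 exon bases with the pseudogene Gm31166 on the other strand. Gm31166 had 175 and 196 reads in females, against 81 and 84 reads in males. Its own log2 fold change was 1.16 (adjusted p 0.0246), so it too was called higher in females, and how far it and Ovol1 share reads cannot be told from gene counts.

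Klf4, a Krüppel-like factor needed for the epidermal barrier in mice, went the other way. It had 115 and 81.9 CPM in the female libraries, against 183 and 163 CPM in the male libraries, with both females below both males. The means were 98.5 ± 23.5 CPM in females and 173 ± 13.8 CPM in males, a ratio of 0.569. The log2 fold change was -0.83 ± 0.16 (adjusted p 0.0273). Klf4 lies at chr4:55527143-55532466 on the minus strand.

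Klf5, its paralog, promotes the growth of basal epithelial cells. It had 66.2 and 70.9 CPM in the female libraries, against 52.5 and 52.0 CPM in the male libraries. The groups did not overlap, but the log2 fold change of 0.39 (95% interval 0.10 to 0.67) missed the threshold (adjusted p 0.101). It was the only member with an unadjusted p below 0.05 that was not called. Klf5 lies at chr14:99298691-99315036 on the plus strand.

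The most abundant factors were close in both sexes. Trp63 had 1666 and 1764 CPM in the female libraries, against 1741 and 1595 CPM in the male libraries, and these ranges overlapped. Its log2 fold change was 0.04 (95% interval -0.27 to 0.35, adjusted p 0.879), and without TMM scaling it was -0.017. The gene makes TA and ΔN isoforms from separate promoters, which gene counts do not separate. Trp63 lies at chr16:25683763-25892102 on the plus strand. Gata3, which controls lipid genes of the barrier in mouse epidermis and is also a T cell factor, had 791 and 735 CPM in the female libraries, against 817 and 896 CPM in the male libraries. The females lay just below the males, with a log2 fold change of -0.17 (95% interval -0.45 to 0.12, adjusted p 0.451). It lies at chr2:9857078-9890034 on the minus strand and shares 155 exon bases with the antisense gene Gm13256, which had 928 and 633 reads in females, against 884 and 941 reads in males.

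The Grainyhead-like factors, which control cell junctions and wound repair, were not called. Grhl1 had 32.2 and 36.4 CPM in the female libraries, against 35.0 and 26.4 CPM in the male libraries. Grhl2 had 122 and 116 CPM in females, against 121 and 144 CPM in males. Grhl3 had 35.3 and 41.9 CPM in females, against 21.7 and 39.2 CPM in males. All 3 overlapped between the sexes. Grhl3 was also the member whose male libraries lay farthest apart, by a ratio of 1.81, and its 95% interval of -0.20 to 0.98 leaves room for a change of either sign. Grhl1 lies at chr12:24572283-24617391 and Grhl2 at chr15:37233036-37363569, both on the plus strand, and Grhl3 at chr4:135541888-135573630 on the minus strand. Grhl2 shares 169 exon bases with the antisense gene Gm16136, which had 1003 and 854 reads in females, against 1171 and 1160 reads in males.

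Some markers of other cells were higher in the female libraries, in a comparison where 6.1% of all tested genes were called. No marker was called in the lists for the hair follicle, the infundibulum and sebaceous gland, melanocytes, Merkel cells, fibroblasts or endothelium. Of 7 Langerhans and dendritic cell markers, 3 (H2-Aa, H2-Ab1 and Cd74) were called higher, and the sum of the list was 1120 to 2395 CPM in females, against 404 to 455 CPM in males. Cd207, which defines Langerhans cells, stayed at 5.32 and 6.92 CPM in females, against 6.60 and 8.46 CPM in males. Itgax overlapped too, with 1.12 and 1.15 CPM in females, against 0.852 and 1.64 CPM in males. Epcam and Mfge8 were higher in females without overlap but were not called. Of 7 neutrophil and macrophage markers 4 were tested and 3 were called higher (S100a8, S100a9 and Cxcr2), with a sum of 273 to 988 CPM in females, against 17.04 to 19.86 CPM in males. Ly6g, which defines neutrophils, had 1 read in each female library and 0 in each male library. Adgre1 had 4 and 2 reads in females, against 7 and 7 reads in males. Lyz2 had 2 and 6 reads in females, against 0 and 1 in males. Csf1r was higher in females without overlap but was not called. The suprabasal keratinocyte list had 3 of 6 markers called higher (Krt1, Krtdap and Flg), with a sum of 1189 to 1540 CPM in females, against 702 to 911 CPM in males. Female replicate 2, with the highest Ehf, Elf3 and Ovol1 and the lowest Klf4, also had the highest S100a8, at 622 CPM, against 174 CPM in female replicate 1. What part the source of these markers had in the members' differences was not tested. In bulk RNA more cells of a type, more RNA per cell and expression by the sorted keratinocytes themselves cannot be told apart. For Gata3, 5 of 8 T cell markers were tested and none of these was called in any comparison, and Cd8a had 0 reads in all libraries. The sum of the list ran from 17.6 to 74.5 CPM in females, against 97.5 to 106 CPM in males, and was mostly Thy1 (8.90 and 60.4 CPM in females, against 80.5 and 97.0 CPM in males); the other 4 tested markers overlapped between the sexes.

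**Figure D2:**
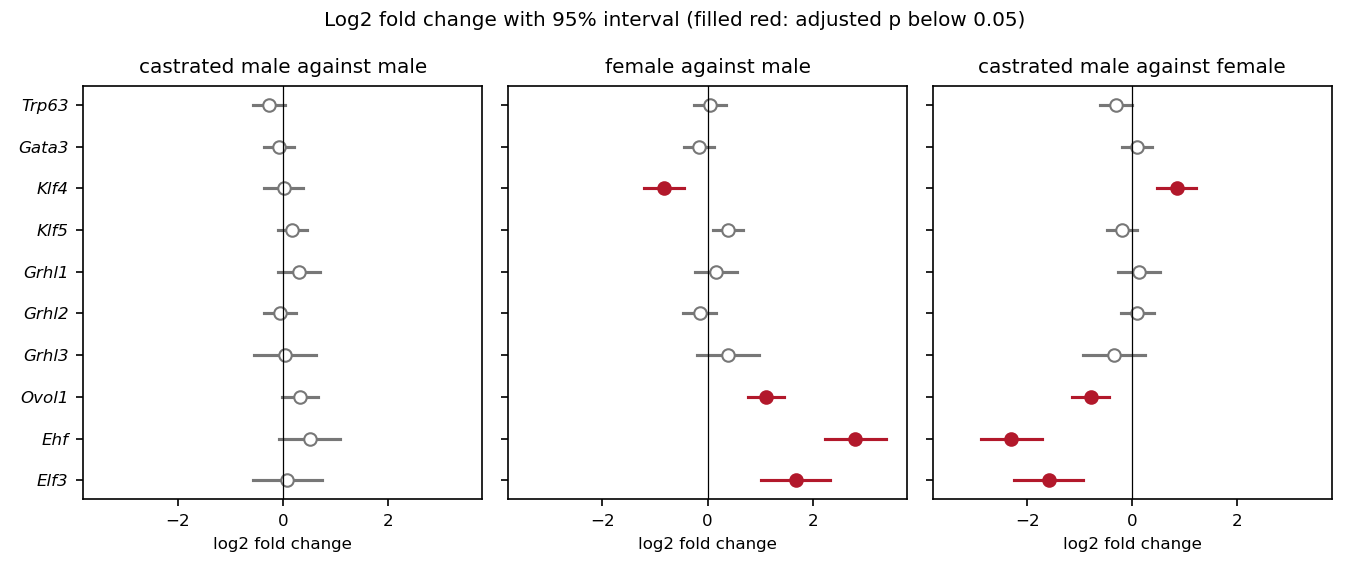
Log2 fold change of each of the 10 genes in the 3 comparisons (points) with 95% intervals from limma (bars); filled points were called at an adjusted p below 0.05. Ehf, Elf3, Ovol1 and Klf4 are called for females against males and, with the opposite sign, for castrated males against females, and no gene is called for castrated males against males.

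Castrated males were then compared with males. Of the 10 members none was called, and none had an unadjusted p below 0.05, where 0.0389% of all tested genes were called (6 genes; 0.013% higher and 0.026% lower). The median log2 fold change of the members was 0.07, against 0.000915 over all genes.

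Some members lay apart without passing the test. Ehf had 61.8 and 84.9 CPM in the castrated libraries, against 52.9 and 48.3 CPM in the male libraries. Both castrated libraries were above both males, with a log2 fold change of 0.51 and a 95% interval of -0.07 to 1.09 (adjusted p 0.890). Ovol1 had 55.7 and 60.6 CPM in castrated males, against 44.5 and 48.2 CPM in males, again without overlap (0.32, 95% interval -0.02 to 0.67). Trp63 had 1337 and 1437 CPM in castrated males, against 1741 and 1595 CPM in males. It was the only member whose castrated libraries both lay below both males, with a log2 fold change of -0.27 (95% interval -0.57 to 0.04, adjusted p 0.898). Klf5 (58.9 and 60.001 CPM in castrated males) and Grhl1 (39.2 and 36.1 CPM) also lay above both males. Such separation of 2 libraries from 2 occurred in 5 of the 10 members and in 35.5% of all genes (4 members and 17.3% of genes above, 1 member and 18.2% of genes below).

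The remaining members overlapped. Klf4 had 176 and 174 CPM in castrated males, against 183 and 163 CPM in males, a log2 fold change of 0.02 with a 95% interval of -0.36 to 0.39. Elf3 had 18 and 20 reads in castrated males, against 20 and 16 reads in males, and its interval of -0.57 to 0.75 is wide at this depth. Gata3 had 836 and 786 CPM in castrated males, Grhl2 119 and 137 CPM, and Grhl3 27.2 and 33.5 CPM. For these 3 the values fell within or across the male range given above. None of the markers of other cell types was called here, while the suprabasal list summed to 1152 to 1249 CPM in castrated males, against 702 to 911 CPM in males, the groups that also do not overlap for Ehf and Ovol1; its part was not tested.

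The third comparison set castrated males against females. Of the 10 members, 1 was called higher and 3 lower, while 1.73% of all tested genes were called (0.571% higher and 1.15% lower). It shares its female libraries with the first comparison and its castrated libraries with the second, so the 3 sets of values are not independent.

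Ehf had 61.8 and 84.9 CPM in the castrated libraries, against 268 and 480 CPM in the female libraries. The higher castrated library was far below the lower female, and the log2 fold change was -2.30 ± 0.26 (adjusted p 0.00478). Elf3 had 2.05 and 2.28 CPM in castrated males, against 6.44 and 8.72 CPM in females, a log2 fold change of -1.59 ± 0.29 (adjusted p 0.0382). Ovol1 had 55.7 and 60.6 CPM in castrated males, against 89.2 and 114 CPM in females, with a log2 fold change of -0.79 ± 0.15 (adjusted p 0.0449). All 3 were therefore lower in castrated males, with no overlap. Klf4 was higher, with 176 and 174 CPM in castrated males, against 115 and 81.9 CPM in females (0.85 ± 0.16, adjusted p 0.0459).

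Of the members that were not called, Trp63 came nearest. It had 1337 and 1437 CPM in castrated males, against 1666 and 1764 CPM in females, without overlap. Its log2 fold change was -0.31 (95% interval -0.61 to -0.00017, unadjusted p 0.0499, adjusted p 0.231). Klf5 and Grhl3 were also lower in both castrated libraries than in both females, with log2 differences of -0.20 and -0.35. In all, 7 of the 10 members did not overlap between these groups, against 57.7% of all genes (1 member and 29.4% of genes higher, 6 members and 28.3% of genes lower). Grhl1, Grhl2 and Gata3 overlapped, with log2 differences between 0.09 and 0.13. The marker lists differed here too: the Langerhans and dendritic cell list summed to 431 to 503 CPM in castrated males, against 1120 to 2395 CPM in females, and the neutrophil and macrophage list to 20.2 to 28.2 CPM in castrated males, against 273 to 988 CPM in females. Of these lists 3 of 7 and 2 of 4 tested markers were called lower in castrated males, and so were 2 of 5 tested markers of the infundibulum and sebaceous gland (Mgst1 and Krt79). In the first 2 lists the called markers were H2-Aa, H2-Ab1 and Cd74, and S100a8 and S100a9. Cd207 had 6.82 and 5.01 CPM in castrated males, against 5.32 and 6.92 CPM in females. Itgax and Csf1r also overlapped. Ly6g had 0 reads in each castrated library and 1 in each female library. Which cells gave the reads of these markers, and their part in the members' differences, was not tested.

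The calls rested on few libraries, and leaving out single libraries showed which. For females against males Ehf was called in all 12 alternatives. Ovol1 lost its call without female replicate 2 (adjusted p 0.0759). Elf3 lost it without female replicate 2 (0.175), without castrated male replicate 1 (0.0596) and with no filter on low values (0.0836). Klf4 kept its call in only 1 of the 6 fits that left out a library, the one without female replicate 1, with a log2 fold change of -0.59 to -1.07 over the 6, and lost it with no filter (0.0926) and in the fit of the 4 libraries compared (0.0703). In castrated males against females Ehf lost its call without castrated male replicate 1 (0.0891) and with no filter (0.0571). There Elf3, Klf4 and Ovol1 each lost their calls when either castrated library or female replicate 2 was left out, with no filter, and with precision weights (adjusted p 0.0614, 0.0640 and 0.0618). Klf4 also lost its call without TMM scaling (0.0522), and Elf3 with the replicate number as a block (0.0615). The sign of these 4 genes was the same in every alternative of both comparisons. Removing 1 library also leaves fewer residual degrees of freedom, and a castrated library enters the comparison of females with males only through the shared spread.

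**Figure D3:**
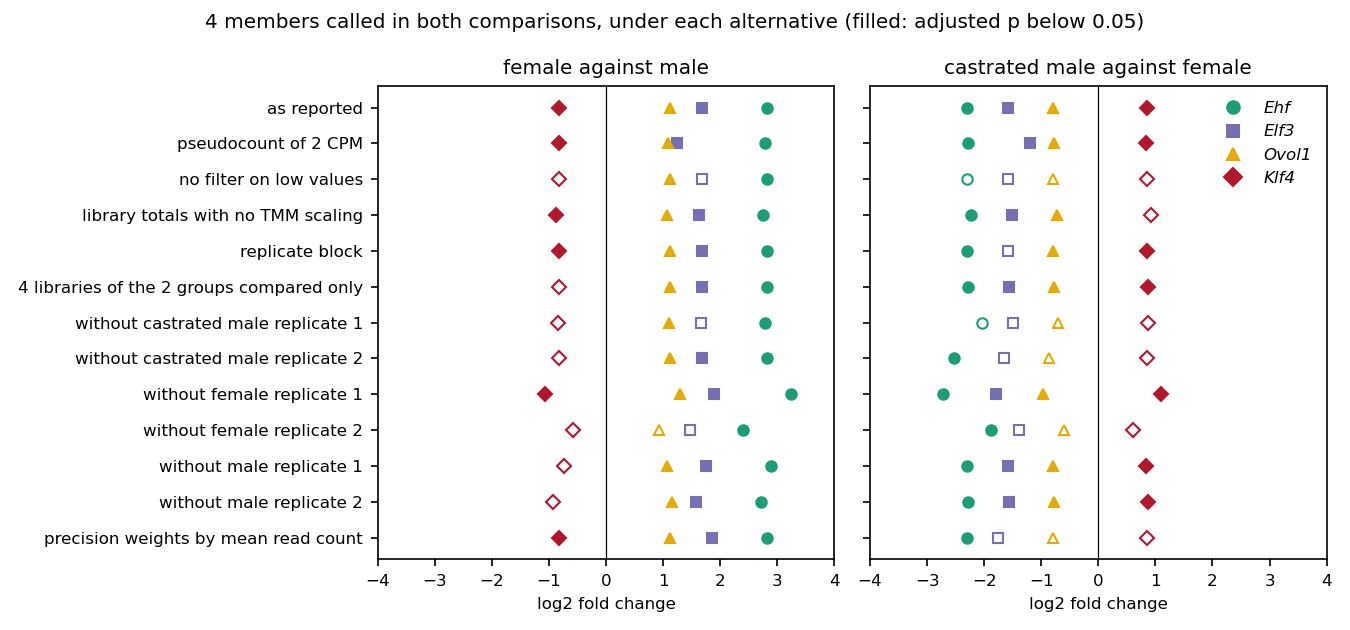
Log2 fold change of Ehf, Elf3, Klf4 and Ovol1 as reported and under each alternative processing, for females against males and for castrated males against females; filled points were called at an adjusted p below 0.05. Ehf for females against males is filled in every row, while Klf4 loses its call in most fits that leave out a library, and no gene crosses 0.

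Members of 1 family were set side by side per kilobase of exon. Of the summed level of Klf4 and Klf5, Klf4 made up 83.6% and 83.2% in castrated males, 74.8% and 66.3% in females and 85.6% and 84.3% in males. The Krüppel-like balance was thus tilted towards Klf5 in both female libraries, although Klf4 remained the larger part. Ehf made up 92.3% and 93.7% of the summed ETS members in castrated males, 94.3% and 95.6% in females and 90.8% and 91.1% in males, so Ehf and Elf3 were raised together in females with Elf3 always the minor one. Grhl2 was the largest Grainyhead-like member in 5 of the 6 libraries, at 43.5% to 49.9% of the sum, and in female replicate 2 Grhl3 (42.9%) exceeded it (38.4%). These shares are descriptions with 2 libraries a group and were not tested.

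**Figure D4:**
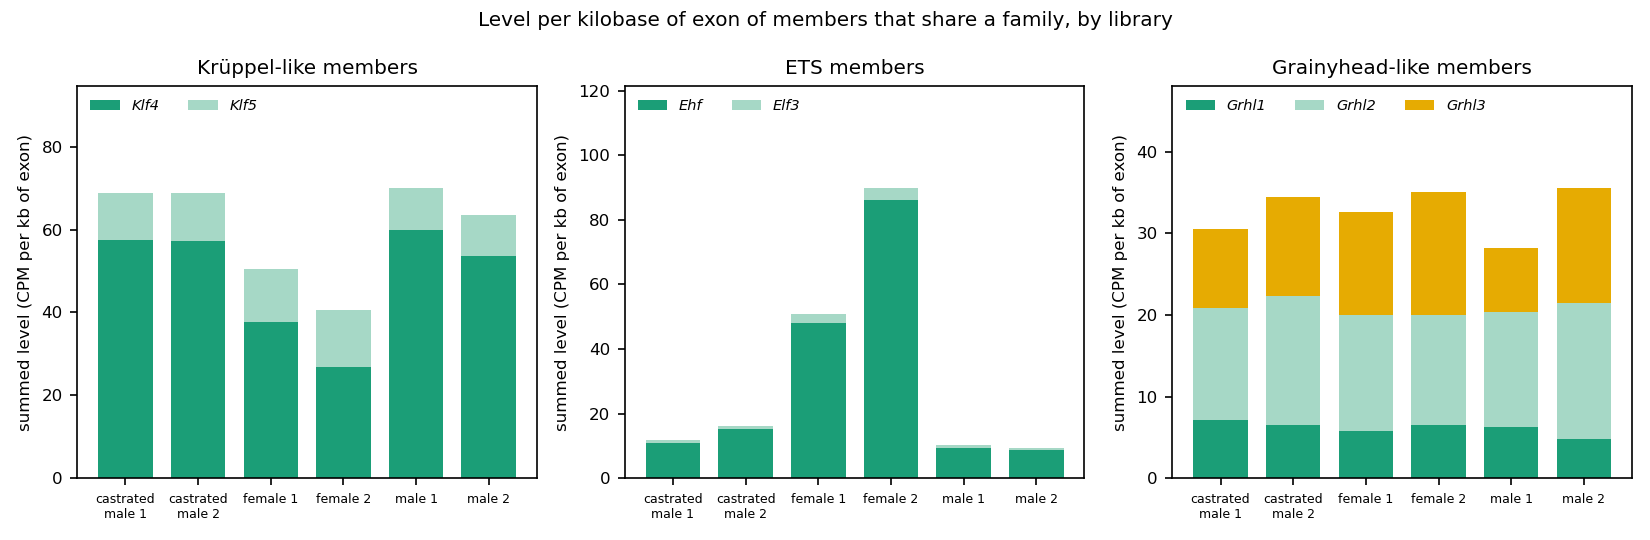
Summed level of family members (CPM per kilobase of exon, stacked bars) in each library for the Krüppel-like, ETS and Grainyhead-like members. The ETS sum is several times taller in both female libraries and almost all Ehf, the Klf4 part is smaller in females, and the Grainyhead-like sums are similar in all 6 libraries.

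For each called member, the genes with the most similar profile over the 6 libraries were found by the root mean square difference of centred log2(CPM + 0.5), among genes of at least 5 CPM. For Ehf they were Fabp5, a fatty acid binding protein of keratinocytes (0.145), Col23a1 (0.222) and Rapgef5 (0.257). Fabp5 had 81.7 and 179 CPM in females, against 14.9 and 14.1 CPM in males, and 19.7 and 31.1 CPM in castrated males. For Elf3 they were Pdzk1ip1 (0.125), Postn (0.131) and the lactate transporter gene Slc16a1 (0.134). For Klf4 they were Perm1 (0.0484), Sh3pxd2b (0.0640) and Esyt1 (0.0726). For Ovol1 they were the overlapping Gm31166 (0.0462), the hyaluronan synthase gene Has3 (0.0552) and Kif20b, a mitotic kinesin (0.0566). Has3 had 24.9 and 35.8 CPM in females, against 12.2 and 13.4 CPM in males. These likenesses rest on 6 libraries and were picked from all genes, so they describe the profiles and were not tested.

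Neighbouring genes were examined for females against males within 500000 bases of each called member. Around Ehf 1 of 7 tested neighbours was called, the hyaluronan receptor gene Cd44, 361768 bases away, with 509 CPM in females, against 301 CPM in males (log2 fold change 0.74, adjusted p 0.0301). Around Elf3 1 of 16 was called (Csrp1, 1.00, adjusted p 0.0480). Around Klf4 neither of 2 was, and around Ovol1 1 of 59 was, the overlapping Gm31166. Over all tested genes 6.1% were called, so 1 call or none among so few neighbours is not a result about them. The median log2 fold change of the neighbours of Ehf was 0.04.

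Other genes of the same programme were taken from 5 lists chosen with earlier results of these data known. Of 43 other epidermal transcription factors, 38 were tested and 4 were called higher in females than in males, none lower (10.5%, against 6.1% of all genes). Among them were Zfp750, a p63 target that drives terminal differentiation in human keratinocytes (1.19 ± 0.21, adjusted p 0.0209), Etv4, an ETS factor (1.30 ± 0.30, 0.0402), and Cebpa (0.82 ± 0.20, 0.0468). Zfp750 had 60.3 and 94.6 CPM in females, against 33.9 and 31.8 CPM in males. The median of the list was 0.03, against -0.01 over all genes. Of 32 paralogs of the members 21 were tested and only Klf12 was called (4.76%, against 6.1% of all genes). Klf12 (1.57 ± 0.38, adjusted p 0.0483) had 37 and 33 reads in females, against 6 and 13 reads in males.

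All 28 known p63 targets were tested for females against males. Of these 1 was called higher and 2 lower (10.7%, against 6.1% of all genes). The lower ones included Fras1, a basement membrane gene (-1.69 ± 0.34, adjusted p 0.0278), which had 31.8 and 17.6 CPM in females, against 54.2 and 111 CPM in males. The Notch ligand gene Jag1 was higher (0.88 ± 0.21, 0.0432). The list's median was -0.17, against -0.01 over all genes. Of the 28 targets 17 were lower in females without overlap and 5 higher (27.2% and 26.6% of all genes). Krt5, Krt14, Itga6, Itgb1, Itgb4 and Col17a1 are also on the basal marker list, so the shifts of these lists are not separate observations. Of 21 Grainyhead-like targets 20 were tested, and 1 was called higher and 4 lower (25%, against 6.1% of all genes). The 4 lower genes encode membrane and junction proteins: Ocln (-0.77 ± 0.13, 0.0171), Prom2 (-0.70 ± 0.12, 0.0208), Cldn1 (-0.74 ± 0.15, 0.0269) and Dsg1a (-0.69 ± 0.14, 0.0301). The desmosomal cadherin gene Dsc2 was higher (1.32 ± 0.31, 0.0431). The list's median was -0.07, and 9 of its 20 tested genes were lower without overlap and 5 higher. Dsg1a had 700 and 561 CPM in females, against 1048 and 981 CPM in males. Grhl1, a known regulator of Dsg1a, overlapped between the same libraries, and a link between these genes was not tested.

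Of 20 spinous, granular and cornified layer genes, 8 were called higher in females than in males and 1 lower. These were 45% of the list, against 6.1% of all genes. The higher ones were Krt1 (1.82), Abca12 (1.89), Cnfn (2.91), Sprr2d (4.68), Krtdap (0.78), Sprr1a (2.12), Klk7 (1.63) and Flg (2.25), and the lower one was Flg2 (-1.35). Krt1, the keratin of spinous cells, had 106 and 143 CPM in females, against 28.9 and 41.0 CPM in males. The list's median was 1.03, against -0.01 over all genes. The suprabasal markers Krt1, Krt10, Krtdap, Sbsn, Lor and Flg are all on this list, so the shifts of these lists are not separate observations. Sprr2d varied strongly within groups, with 23.4 and 196 CPM in females, against 6.92 and 0.470 CPM in males.

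In the other comparisons these lists held few calls. For castrated males against males none of the lists held any. The layer list nevertheless had a median log2 fold change of 0.73 there, against 0.000915 over all genes, with 10 of its 20 genes higher in both castrated libraries than in both males and 0 lower (17.3% and 18.2% of all genes). In that comparison the smallest p-values of the factor lists belonged to Fosl2 (log2 fold change -0.61, adjusted p 0.428), Runx1 (-0.91, 0.600), Klf12 (1.06, 0.766) and Klf13 (-0.48, 0.804). Those of the target lists were Dsc2 (1.34, 0.425), Cldn1 (-0.51, 0.633), Hells (0.62, 0.780) and Cdkn1a (-0.33, 0.788). In the layer list they were Flg2 (1.16, 0.545) and Krtdap (0.62, 0.625). For castrated males against females the called genes were Fras1 (1.69 ± 0.34, adjusted p 0.0493), Dsg1a (0.73 ± 0.14, 0.0471) and Flg2 (2.50 ± 0.30, 0.00688), all higher in castrated males, and Sprr2d, which was lower (-5.46 ± 1.04, 0.0428). These were 3.57% of the p63 targets, 5% of the Grainyhead-like targets and 10% of the layer genes, against 1.73% of all genes. Without overlap 16 of the 28 p63 targets were higher in castrated males and 5 lower. The same held for 10 and 3 of the 20 Grainyhead-like targets, and for 3 and 10 of the 20 layer genes (29.4% and 28.3% of all genes). None of the other epidermal factors was called there; among those with the smallest p-values was Msx2 (1.43, 0.0769), and among the paralogs were Klf10 (-0.52, 0.138) and Tfcp2 (0.63, 0.160). When single libraries were left out, the calls of the other factors, the p63 targets and the Grainyhead-like targets changed in both comparisons with females. For females against males each of these lists lost all its calls in some fit.

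**Figure D5:**
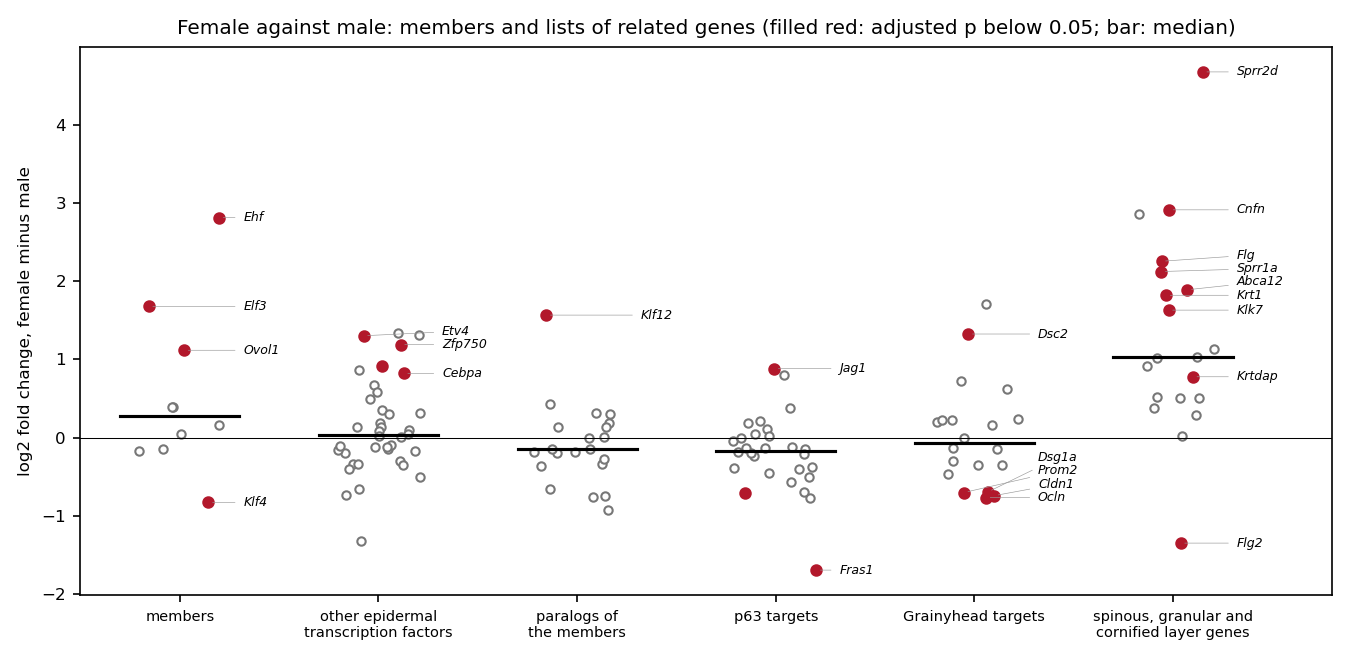
Log2 fold change, females minus males, of the 10 members and of the tested genes of 5 related lists; filled red points were called at an adjusted p below 0.05 and bars are medians. Ehf exceeds every other transcription factor shown, and the medians of the lists of factors and targets lie between -0.17 and 0.03. The spinous, granular and cornified layer genes lie mostly above 0 with a median of 1.03.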

How the data were processed

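Polyadenylated RNA of sorted ear keratinocytes was sequenced in 6 libraries. Per the submitters' processing notes, FastQC, STAR 2.7.5a, Picard and HTSeq 0.11.1 were used with GRCm38 and mm10; of the annotation, the strand setting and the scaling nothing is said. The deposited values are scores: as the columns show, reads per gene scaled to a total near 20000000 in each library and rounded. Each column was divided by its step (2.07 to 2.38) to recover reads, since 99.98% to 100% of values lay within 0.5 of a multiple. Because the deposited scores are not counts, limma was used in place of a count test.

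Reads were scaled by TMM factors (0.927 to 1.03, a trimmed mean of log ratios) to CPM. Genes with 1.16 CPM (10 reads at the median depth) in at least 2 libraries and 15 reads in total were tested, 15413 in all. limma 3.58.1 (R 4.3.3) fitted log2(CPM + 0.5) with 1 mean per group over all 6 libraries, an intensity trend, 3 residual and 5.81 prior degrees of freedom, and the steps were tested on simulated data. A fold change on this scale understates that of scarce genes, and the precision is limited by 2 libraries a group; replicates differed by more than sampling noise (chi-square per degree of freedom 4.79 in castrated males, 13.6 in females and 12.9 in males). Coordinates and exonic lengths come from a GENCODE annotation of GRCm38, which matched 49326 of the 49671 genes by identifier, promoters from RefSeq (GRCm38.p6). The second male library bears the number 3 in its column name and 2 in its title; its title was followed.

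The members, lists and tests were chosen with earlier results of these data known. All members are named; of each list, called genes (up to 6 by p, or 2 where none was called) are named by rule, and for called members the 3 genes of most similar profile. The layer genes beyond 6, the neighbouring genes, the overlapping genes and the markers given with values were named after their values were seen. Some genes that the rule names are not reported here.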

Additional observations from a re-analysis of the deposited data

How the results depend on the processing

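Every alternative left the number of members called for castrated males against males at 0. With no filter on low values, which tests more genes, 2 members were called for females against males and 0 for castrated males against females, and the genes called overall were 2 for castrated males against males, 103 for females against males and 33 for castrated males against females. With a pseudocount of 2 CPM, 11 genes were called for castrated males against males. Fits of the 4 libraries compared called 265 genes for females against males and 560 for castrated males against females. Precision weights by mean read count, chosen after seeing the data, called 88 genes and 1 member for castrated males against females; the cause was not tested. When 1 library was left out, genes called ran from 1 to 74 for castrated males against males, from 49 (without female replicate 2) to 1773 (without female replicate 1) for females against males and from 21 (without castrated male replicate 1) to 1323 (without female replicate 1) for castrated males against females, and members called ran from 1 to 4 for females against males and from 0 to 4 for castrated males against females. No called gene among the members changed sign. Of those not called, Trp63 for females against males was -0.017 without TMM scaling and -0.049 to 0.112 with libraries left out. Over the same leave-one-out fits, log2 fold changes crossed 0 for Grhl2 (-0.174 to 0.068), Grhl3 (-0.368 to 0.461) and Klf4 (-0.067 to 0.105) in castrated males against males, for Grhl1 (-0.059 to 0.375) and Grhl3 (-0.021 to 0.783) in females against males and for Grhl2 (-0.011 to 0.229) in castrated males against females. Where a group was left with 1 library, that library was assumed to vary like the others. Same-numbered libraries had correlations of deviations of 0.194 (castrated males and females), -0.0103 (castrated males and males) and -0.153 (females and males). With only 1 difference between replicates in each group, these values cannot tell whether the replicate numbers pair the samples. With the replicate block 5, 817 and 162 genes were called for castrated males against males, females against males and castrated males against females, and 0, 4 and 3 members; Elf3 was lost from the last (adjusted p 0.0615). A count test was planned only for the case that the deposited values were counts, and none was run on the recovered reads. At 16 to 68 reads per library, depth limits Elf3 most.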
